A study of Mus musculus with 38 samples.

Results

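Gene expression was compared between CD11b+ migratory dendritic cells (DC) of the skin-draining lymph nodes and CD11b+ DC of the dermis, both from untreated mice. These are 6 of the series' 38 arrays, 3 arrays for each group, chosen by their titles. Dermal DC sample the skin. Some of them leave it through lymphatic vessels, guided by the chemokine receptor CCR7, and present skin antigens to T cells in the draining node. This traffic also runs without infection or injury, and the accompanying change of the cells is known as homeostatic maturation. In it, a DC loses receptors for taking up antigen and gains the actin-bundling protein fascin, CCR7 and costimulatory proteins.

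All mice were untreated wild-type C57BL/6 females aged 6 weeks. Dermal DC came from ear skin digested with dispase and collagenase 4 and enriched on percoll, and were sorted as live CD11b+, CD24-, Ly6C-, CD64- cells with MHC class II. Node DC came from cutaneous nodes digested with collagenase 2 and enriched on optiprep. Their gate began with live CD11c+ cells high in MHC class II and then applied the same CD11b, CD24, Ly6C and CD64 criteria. Each array held RNA of 5000 to 10000 sorted cells, amplified from 5 to 20 ng, and the 3 arrays of a group came from independent pools of mice. Tissue, digestion, gradient and gate differ together between the groups and cannot be told apart. The arrays were run in 3 chip batches, and which array belongs to which batch is not given in the sources used here. The same pair of populations was also sorted 3 days after 10 µl of 0.5% DNFB, a contact sensitiser, was put on the ear, and those 6 other arrays serve as a second measurement below.

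Values are log2 signals of a short-oligonucleotide array, so a difference of 1 is a 2-fold change. Differences are node minus dermal DC, with the standard error (SE) from limma's model over all 38 arrays. A gene is said to have risen or fallen where its Benjamini-Hochberg adjusted p was under 0.05 over 19937 genes. Arrays of one group correlated at 0.975 to 0.986, and arrays of different groups at 0.897 to 0.909. The low-signal level used here is 4.02, the 40th percentile of all values. Where a group lies near or below it, the size of a difference is limited by that level and its rank has no exact meaning. The number of arrays limits the precision. Probe sets of near-identical gene copies, such as those of the lysozyme, CD209, Clec4a, Gbp and H2 families, may share signal. In sorted pools, fewer cells of a type and less RNA per cell cannot be told apart.

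The groups differed widely. Node DC had higher signal for 2023 genes and lower signal for 2017, which is 20.3% of the genes tested (10.1% in each direction), and 7112 genes (35.7%) had no overlap between the 3 arrays of each group. List counts below are to be read against the 10.1% of all genes called in each direction. Large changes were more often falls. Changes of at least 2 log2 units numbered 274 rises and 507 falls, and those of at least 4 units 34 rises and 100 falls. The median difference over all genes was 0.05. With array medians centred it became -0.05 and the split of calls became 1388 rises and 2304 falls.

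**Figure D1:**
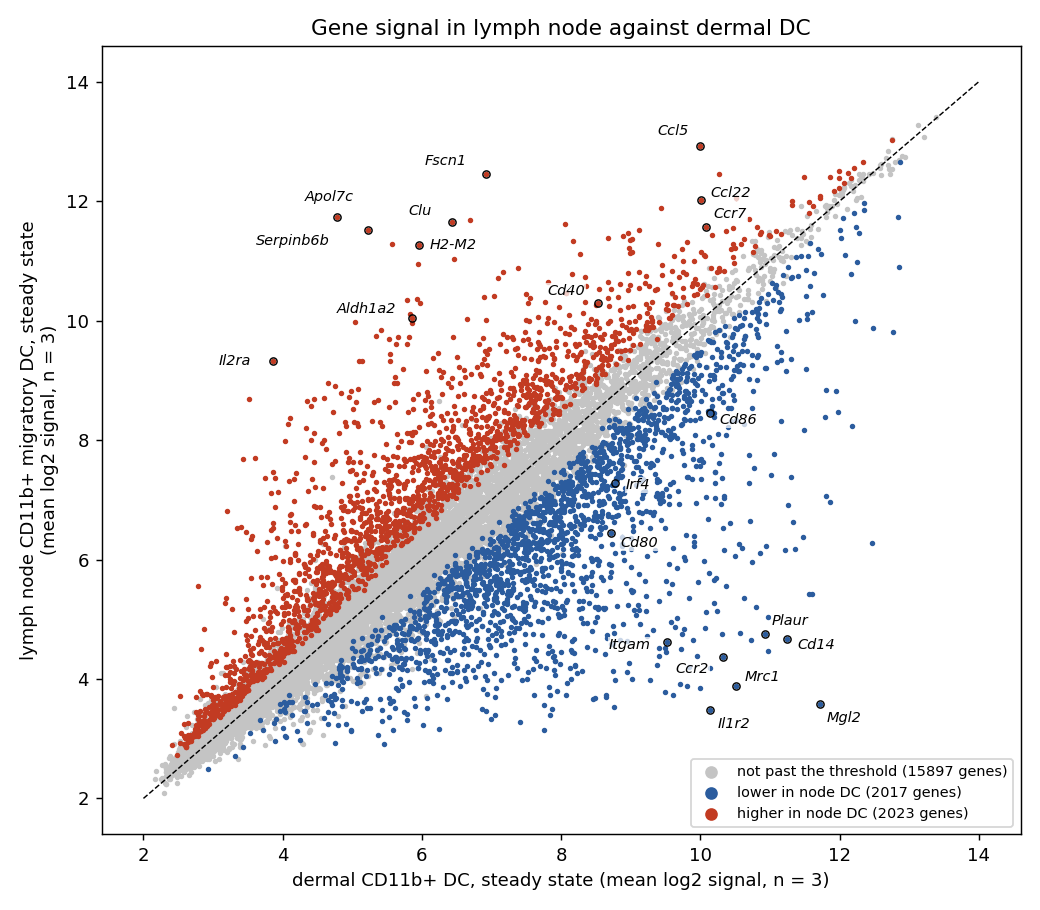
Mean log2 signal of each gene in dermal DC (horizontal axis) and node DC (vertical axis), 3 arrays each, with genes coloured by the limma call and some named genes circled. There are nearly as many blue genes below the dashed line of equality (2017) as red genes above it (2023), and the blue ones include more that lie far from the line.

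The genes of the sorting markers did not all match the gates at the RNA level. Itgam encodes CD11b, on which both populations were sorted. It read 9.55, 9.67 and 9.33 in the dermal DC arrays and 4.71, 4.50 and 4.67 in the node DC arrays, a fall of 4.89 (SE 0.22, limma adjusted p = 2.63e-16). All 3 node arrays were thus near the low-signal level. The same probe set read 8.65 on average in CD64+ cells of the node after DNFB, and 10.63 in blood monocytes. The probe set therefore gave signal in other cells, and surface protein was not measured by these arrays. Cd24a, the gene of the marker gated against, was high in both groups, at 8.83 and 8.94, and its arrays overlapped. Fcgr1, which encodes CD64, was low, at 5.94 in dermal and 4.69 in node DC. Itgax (CD11c) fell by 0.76 (adjusted p = 0.00483), although CD11c was gated for in the node cells only, and this call was lost without dermal DC replicate 1 (adjusted p 0.0641). H2-Ab1, a class II chain, fell by 0.64.

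Defining DC genes were present in both groups. Flt3, the receptor for the DC growth factor FLT3L, averaged 8.73 in dermal and 9.74 in node DC, a rise of 1.0 whose call was lost without dermal DC replicate 1 or 3 or node DC replicate 1, 2 or 3 (adjusted p 0.0647 to 0.106) and with array medians centred. Zbtb46, a transcription factor of conventional DC, averaged 6.25 and 6.51 and did not pass the test. Of 17 measured genes of a conventional DC list 7 rose and 5 fell, where 10.1% of all genes were called in each direction. Of 12 genes of a CD11b+ DC list 3 rose and 6 fell. Dpp4 (CD26) rose by 2.06 and the chromatin protein gene Hmgn3 by 3.83. P2ry10, a lysophospholipid receptor gene, fell by 1.79. The dermal arrays also carried genes of other dermal cells. Keratinocyte genes fell in node DC for 11 of 13, with a summed linear signal of 1908 to 3093 in the dermal arrays and 364.5 to 445.9 in the node arrays. Krt5, a basal keratin gene, read 9.67, 8.37 and 8.81 in dermal and 4.59, 4.59 and 4.72 in node DC. Of 12 fibroblast genes 2 fell, and they were Dcn (-3.86) and Sparc (-4.01), while the summed signal was 1047 to 1943 against 379.3 to 379.9.

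Macrophage genes fell for 16 of 22, with a summed signal of 13990 to 16180 in dermal and 1194 to 1389 in node DC. In the CD64+ cells called P4, the dermal group labelled as macrophages without MHC class II, that sum was 50310 to 59590. Within dermal DC the list was uneven. C1qb, a complement chain gene, read 9.96, 9.24 and 9.96 in the dermal arrays and 3.93, 3.82 and 5.77 in the node arrays. Cd163, the haemoglobin scavenger receptor gene, read 10.42, 9.90 and 10.11 and 4.10, 4.47 and 3.98. Both were thus high in every dermal array and low in every node array. In each dermal array 21 of the 22 genes lay above the low-signal level, and Cd14 and Csf1r were also strong, as given below. Mertk, Folr2 and Stab1, chosen after their values were seen, were near or below that level in dermal DC. Mertk averaged 3.84 there against 8.27 in the dermal P4 cells, Folr2 averaged 4.58 against 10.14, and Stab1 averaged 4.49 against 9.51. Monocyte genes fell for 4 of 10 and rose for none, with a summed signal of 3608 to 4096 in dermal and 328.6 to 425.3 in node DC. The part of macrophage and monocyte RNA in the results below was not tested. For keratinocyte and fibroblast RNA a fit took the means of both lists as covariates, and it called 2927 genes, 1245 up and 1682 down. Of these, 2354 were among the 4040 genes called without covariates. Among the named genes whose calls were lost in that fit are Itgax, S1pr1, Cd83, Ifih1, Cxcl16, Il15, Rel, Batf3, Hspa8, Oasl1, Oasl2, Nr1h3, Bcl2l1, Atp1b1 and Slamf7. At most 1 gene rose and at most 2 fell in each list for lymphocytes, granulocytes, mast cells and endothelium. Lists for other DC and for node stroma moved more. Of 11 genes for cDC1 and Langerhans cells 1 rose and 3 fell, with a summed signal of 2543 to 2933 in dermal and 846.6 to 1100 in node DC, and the falls included Cd207 (-1.95, a call lost with the covariates) and Cdh1 (-2.26). Of 7 genes for node-resident DC 3 rose and 2 fell, with sums of 4016 to 4324 and 471.9 to 476.8. That list holds Cd209d, an uptake gene that fell as given below, and Cd4, which rose by 1.13. The Cd4 call was lost without dermal DC replicate 1 or node DC replicate 2 or 3, with array medians centred and with the covariates. Dermal P4 cells had a sum of 2649 to 3517, so the sum is no measure of resident DC alone. Of 7 node stroma genes 2 rose and 3 fell, with sums of 784.9 to 852 and 776.8 to 901.3. The part of these other DC and of stroma in the results below, among them Irf8, Batf3 and the class II genes, was not tested.

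**Figure D2:**
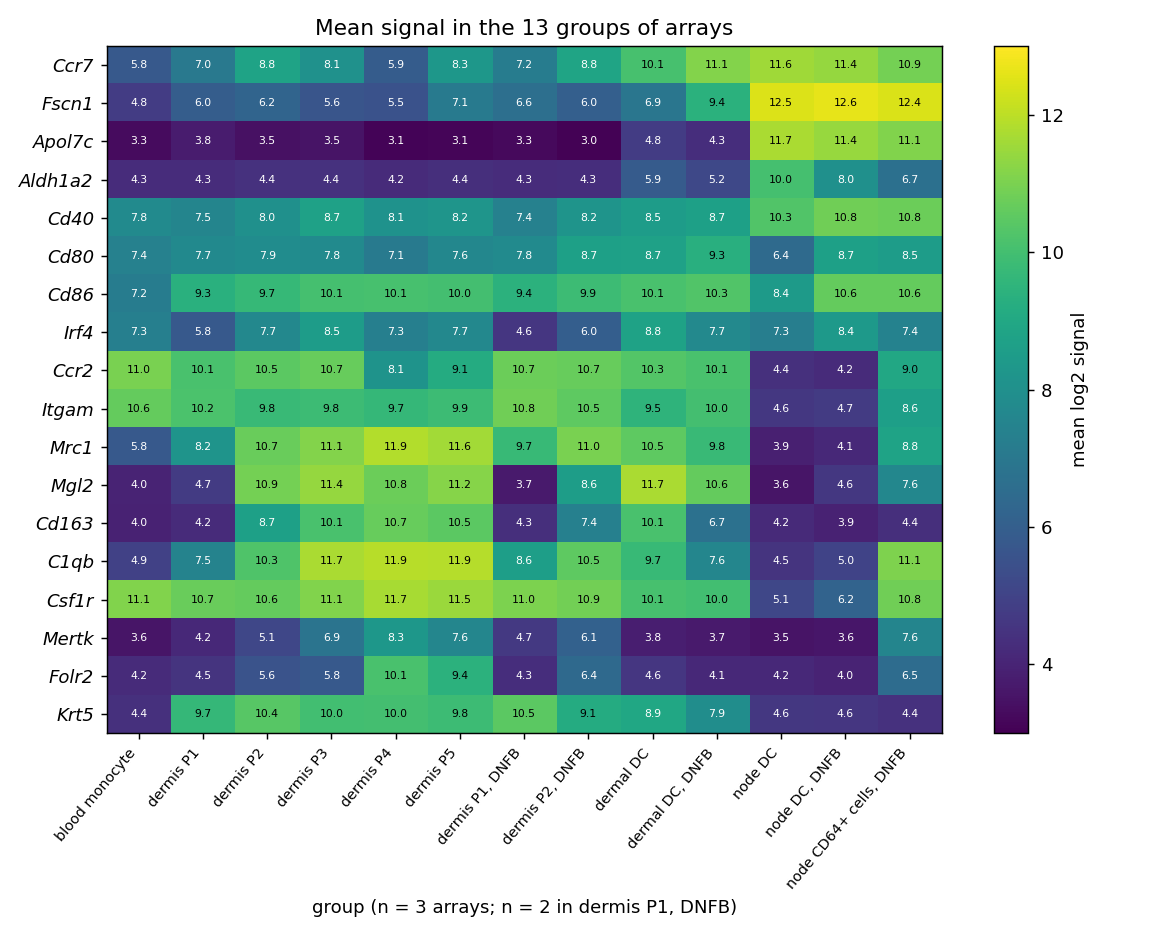
Mean log2 signal of 18 genes in all 13 groups of arrays, with the value written in each cell. The columns of both node DC groups stand apart from the dermal and blood groups by high Fscn1, Apol7c and Aldh1a2 and by Ccr2, Itgam and Mrc1 between 3.9 and 4.7, while Mertk and Folr2 are low in both kinds of DC and high in the dermal P4 and P5 cells.

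Of 9 receptors for lymphatic and node signals 3 rose, none fell and 6 did not pass, with a median difference of 0.08. Of 16 receptors for signals of peripheral tissue 2 rose, 8 fell and 6 did not pass, with a median of -1.0, where 10.1% of all genes were called in each direction. Ccr7 was already strong in the skin: it read 9.85, 10.53 and 9.87 in dermal DC and 11.68, 11.67 and 11.34 in node DC, a rise of 1.48 (SE 0.27, limma adjusted p = 0.000102). All node arrays lay above all dermal arrays. Blood monocytes, for scale, averaged 5.79 for Ccr7. Gpr183, the receptor for oxysterols that position cells within the node, rose by 1.70, from 7.22, 8.24 and 7.63 to 9.33, 9.20 and 9.65. S1pr1, a receptor for sphingosine-1-phosphate, rose by 1.14, and this call was lost without dermal DC replicate 2 or 3 or node DC replicate 1 or 3 (adjusted p 0.0688 to 0.156) and with array medians centred. Ptger4, a prostaglandin E2 receptor gene, rose by 1.33, while Ptger3 fell by 2.44.

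Ccr2, the receptor that draws monocytes and DC precursors into tissue, had the largest fall of the Ccr and Cxcr genes. It read 10.39, 10.35 and 10.23 in dermal DC and 4.65, 4.12 and 4.35 in node DC (difference -5.95, SE 0.27, limma adjusted p = 3.54e-16). The node arrays were near the low-signal level, so the size of the fall is limited by it. The receptors for complement fragments fell as well, C3ar1 by 6.14 and C5ar1 by 3.23. So did the leukotriene B4 receptor gene Ltb4r1, by 3.57, and the chemerin receptor gene Cmklr1, by 1.67. Ccr6 rose by 1.25, but only from 3.89 to 5.13.

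Among 16 integrin chains 7 fell and 2 rose, where 10.1% of all genes were called in each direction, so the rises were near that share. Itgb2, the partner of CD11b and CD11c, read 10.35, 10.25 and 10.02 in dermal and 7.32, 7.60 and 6.90 in node DC. Itgb7 fell by 2.86 and Itga5, part of a fibronectin receptor, by 2.14. Itgb8, which takes part in activating TGF-beta, rose by 2.53, from 4.10 to 6.63. Of 18 genes for matrix proteases and their inhibitors 7 fell and 2 rose, again with rises near the share of all genes. Plaur, the urokinase receptor, read 11.03, 10.76 and 11 in dermal and 4.74, 4.72 and 4.82 in node DC, a fall of 6.17 (SE 0.16). Plau, its ligand, fell by 4.19, the elastase gene Mmp12 by 5.10, Mmp19 by 4.49 and the inhibitor gene Timp2 by 4.77. Outside the lists, Mmp7 rose by 3.18, from 4.45 to 7.63.

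Of 35 actin and microtubule regulators 16 rose and 7 fell, and their median difference was 0.33, against 0.05 over all genes. Fscn1, the actin-bundling fascin gene, read 6.43, 7.10 and 7.26 in dermal DC and 12.36, 12.48 and 12.54 in node DC. The rise of 5.53 (SE 0.42, limma adjusted p = 2.4e-11) is a 46.2-fold difference, and all node arrays lay above all dermal arrays. Fscn1 was as high in the other node populations, with 12.62 in node DC and 12.43 in CD64+ node cells after DNFB. The highest dermal or blood mean was that of dermal DC after DNFB, at 9.38. Actn1, an actin crosslinker, rose by 3.10 and Swap70, a regulator of membrane ruffling, by 2.39. Plxnc1, a semaphorin receptor, rose by 2.84, and Plxna1, also a plexin gene, fell by 1.92. Ezr (ezrin), which links actin to the membrane, fell by 2.26, and Capg, a capping protein gene, by 1.81.

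**Figure D3:**
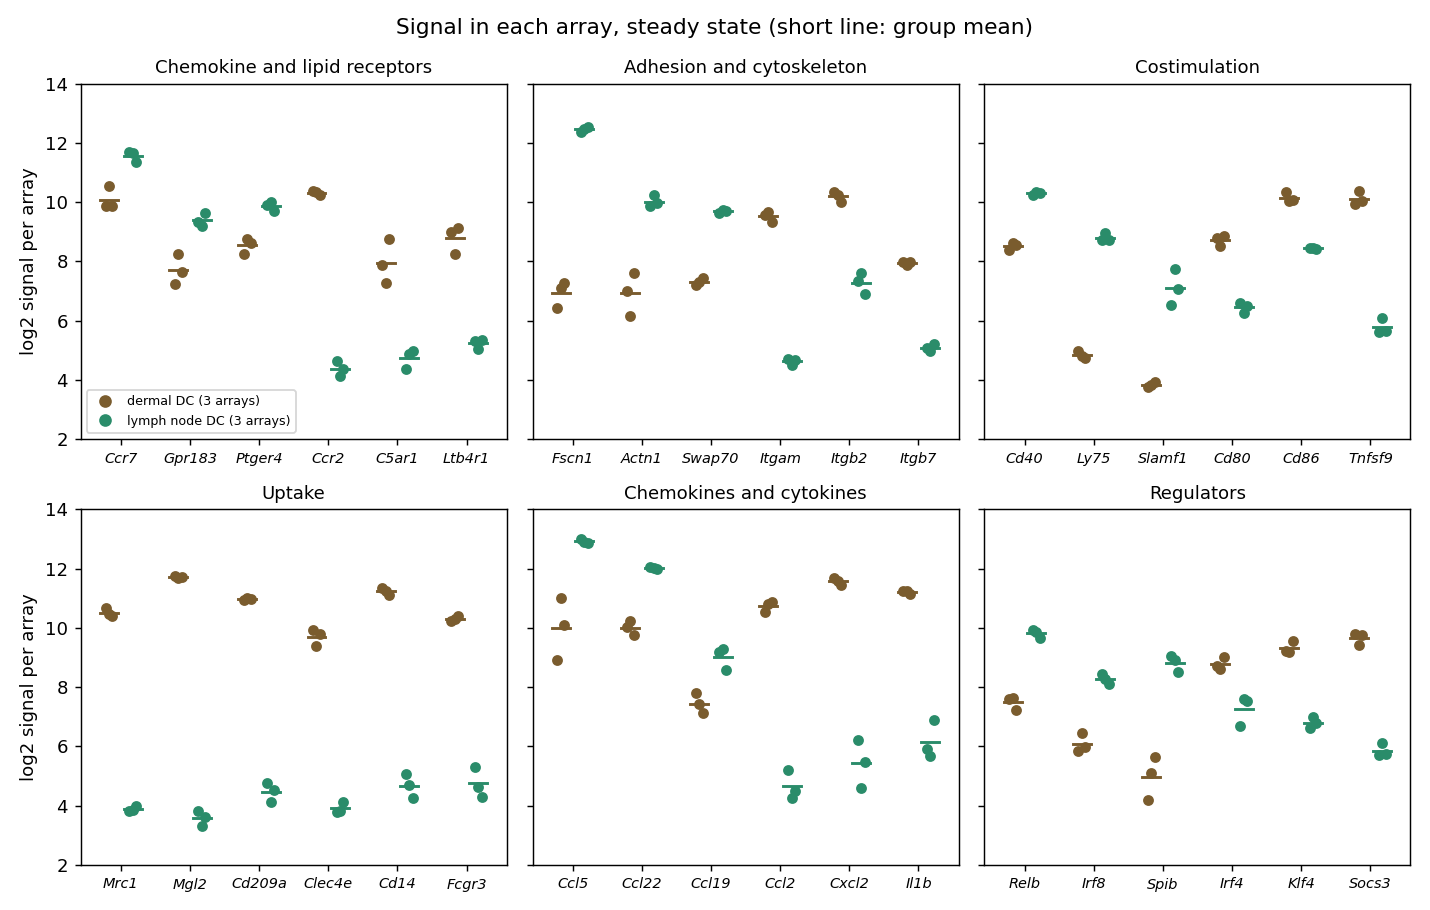
Log2 signal of 36 genes in each of the 3 dermal DC arrays (brown) and 3 node DC arrays (green), with a line at each group mean. For every gene drawn the arrays of the groups do not overlap. Ccr2, Itgam and the uptake genes fall to near the low-signal level in the node, whereas Cd80, Cd86 and Irf4 fall to an intermediate level.

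Genes for taking up antigen were lower in the node across their families. Of 41 uptake receptors none rose and 31 fell, with a median difference of -3.36. Of the 19 C-type lectins 16 fell. Mgl2 (CD301b), a galactose-binding lectin typical of dermal DC, read 11.74, 11.67 and 11.73 in dermal and 3.81, 3.33 and 3.60 in node DC. The difference was -8.13 (SE 0.35, limma adjusted p = 1.14e-16). The mannose receptor gene Mrc1 read 10.68, 10.46 and 10.39 and 3.81, 3.85 and 4.0. Both genes went from among the strong signals of the array to or below the low-signal level in all 3 node arrays, which limits the size of the fall. Cd209a, a DC-SIGN gene, fell by 6.50, Cd209d by 6.18 and Clec4e (Mincle), a receptor for mycobacterial glycolipid, by 5.79.

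Receptors for dead cells and immune complexes were lower too. Of 15 scavenger and apoptotic cell receptors 10 fell, among them Lrp1 (-3.73) and the macrosialin gene Cd68 (-3.32). The Fc receptor genes Fcgr3 and Fcgr2b fell by 5.57 and 3.31. Several of these genes are also macrophage markers, whose summed signal is given above. The count of 31 was 32 in the fit with keratinocyte and fibroblast covariates, and 31 to 33 over the alternatives counted for the lists, treat left out. Those covariates do not measure macrophage RNA, so this count cannot decide its part, which was not tested. In lysosomes, 5 of 12 cathepsin genes and 8 of 18 other hydrolase and membrane protein genes fell. Ctsc fell by 1.40, Man2b1 by 1.85 and Gla by 2.37. Lamp1 and Cd63, membrane proteins of late endosomes, rose by 0.76 and 2.40.

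Sensors of microbes moved in both directions. Among 16 Toll-like receptor genes and their partners 8 fell and 4 rose, where 10.1% of all genes were called in each direction. Cd14, the lipopolysaccharide co-receptor, read 11.36, 11.25 and 11.11 in dermal and 5.06, 4.70 and 4.27 in node DC (limma adjusted p = 9.13e-18). Cd180 fell by 4.18, Tlr2 by 2.35 and Unc93b1, which carries nucleic acid sensing receptors to endosomes, by 1.62. The inflammasome sensor gene Nlrp3 fell by 5.15, from 9.38 to 4.23. Among 15 cytosolic sensors 5 rose and 2 fell, the rises including Zbp1 (1.33) and the RNA sensor gene Ifih1 (1.20). In the covariate fit 1 gene of the pattern recognition list rose, against 9, and Ifih1 missed the threshold (difference 1.27, adjusted p = 0.103).

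Most measured genes for presentation on MHC class I rose. Of 16 measured genes of class I chains, peptide transport, loading and the immunoproteasome 14 rose and 2 fell, where 20.3% of all genes were called. Of 6 listed chain genes only 3 were measured, among them B2m (0.52) and H2-M3 (1.02). The count therefore does not cover the class I chains as a whole. Their median difference was 1.33. The immunoproteasome gene Psmb9 read 9.28, 9.58 and 9.42 in dermal and 11.90, 11.87 and 11.89 in node DC, a rise of 2.46 (SE 0.16, limma adjusted p = 3.42e-13). All 3 node arrays lay more than 2 units above the highest dermal array. Psme2, a proteasome activator subunit, rose by 2.24, Tapbpl, a peptide editor, by 2.78 and Nlrc5, the class I transactivator, by 1.30. H2-M2, a non-classical class I gene, rose by 5.31, from 5.62, 6.53 and 5.73 to 11.26, 11.30 and 11.25. The chaperone genes Calr and Pdia3 were the exceptions and fell by 0.67 and 0.81. In the covariate fit 9 genes of the list rose.

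MHC class II did not move as a block. Of 17 measured genes 5 rose and 7 fell, where 10.1% of all genes were called in each direction. The classical chain gene H2-Eb1 fell by 0.81 but stayed among the strongest signals, at 11.46. H2-DMa, a chain of the mouse counterpart of the peptide editor HLA-DM, read 11.81, 11.80 and 11.80 in dermal and 8.80, 8.91 and 8.81 in node DC. Ciita, the class II transactivator, fell by 1.78, and Marchf1, whose ubiquitin ligase removes class II from the surface, fell by 1.02. H2-Eb2 was the largest rise of the list, at 6.16, 5.0 and 5.07 in dermal and 10, 9.71 and 9.80 in node DC. The lipid-presenting Cd1d1 rose by 2.38.

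Costimulatory genes moved in both directions. Of 23 genes 9 rose and 8 fell, where 10.1% of all genes were called in each direction. Cd40, through which helper T cells act on DC, read 8.38, 8.63 and 8.56 in dermal and 10.24, 10.35 and 10.32 in node DC, a rise of 1.78 (limma adjusted p = 8.07e-07). The B7 genes went the other way. Cd80 read 8.79, 8.51 and 8.86 in dermal and 6.60, 6.24 and 6.50 in node DC, a fall of 2.28 (SE 0.28, limma adjusted p = 1.96e-07). Cd86 read 10.33, 10.05 and 10.06 and 8.47, 8.46 and 8.42, a fall of 1.70 (SE 0.26, limma adjusted p = 9.97e-06). Steady-state node DC had the lowest mean of all 13 groups for Cd80 (6.45), and for Cd86 only blood monocytes were lower (7.19). Tnfsf9 (4-1BBL) fell by 4.34 and Tnfsf14 (LIGHT) by 3.27.

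Of 13 other surface proteins of activated DC 8 rose and 4 fell. Ly75 (DEC-205) read 4.98, 4.79 and 4.73 in dermal and 8.72, 8.95 and 8.72 in node DC. Slamf1 rose by 3.28, Tnfrsf9 (4-1BB) by 3.47, Tnfrsf4 (OX40) by 3.32 and Tnfrsf11a (RANK) by 1.63. Cd83, a common marker of mature DC, fell by 0.84, a call lost without dermal DC replicate 1 or node DC replicate 3 (adjusted p 0.0583 to 0.122), and remained high at 10.80. Cd84 fell by 4.15 and Slamf8 by 2.61.

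Genes that restrain T cells or cytokine signals did not share one direction, with 11 of 42 rising and 14 falling. The share of all genes called was 10.1% in each direction. In the covariate fit 6 of the 42 rose and 14 fell. Aldh1a2, the enzyme that makes retinoic acid, read 6.64, 4.64 and 6.30 in dermal DC and 9.90, 10.19 and 10.03 in node DC. The rise of 4.18 (SE 0.33, limma adjusted p = 5.39e-11) left node DC at 10.04, with every blood and dermal group between 4.23 and 5.86. Socs2, a feedback inhibitor of cytokine receptors, rose by 4.57, and its relatives Socs3 and Cish fell by 3.81 and 2.94. The inhibitory ligand genes Cd274 (PD-L1) and Cd200 rose by 1.28 and 2.70. Il1r2, the decoy receptor for interleukin-1, read 9.99, 10.26 and 10.19 in dermal and 3.36, 3.66 and 3.43 in node DC, where all 3 arrays lay below the low-signal level. Tgfbi fell by 5.18, Tgfb1 by 3.38 and Havcr2 (TIM-3) by 2.68. Ido1 was below the low-signal level in both groups, at 3.55 and 3.48.

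Chemokine genes differed by the cells they attract. Of 9 chemokines for T cells 4 rose and 2 fell, where 10.1% of all genes were called in each direction. Ccl5 read 8.92, 10.99 and 10.08 in dermal and 13.01, 12.89 and 12.88 in node DC, and Ccl22, a ligand of CCR4, 10.04, 10.24 and 9.76 and 12.06, 12.01 and 11.98. The dermal Ccl5 arrays were spread over more than 2 units, and the node arrays lay close together above them. Ccl17, the other CCR4 ligand, averaged 12.24 and 12.01, and its arrays overlapped. Cxcl16 rose by 1.09. Ccl19, a CCR7 ligand, rose by 1.56, a call lost without dermal DC replicate 2 or 3 or node DC replicate 1 or 2 (adjusted p 0.053 to 0.0847). Cxcl9 and Cxcl10, interferon-induced chemokines, fell by 2.07 and 3.57, and the Cxcl9 call was lost without node DC replicate 2 (adjusted p 0.0542).

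Of 8 chemokines for monocytes none rose and 6 fell, and of 6 for neutrophils none rose and 4 fell. Ccl2 read 10.54, 10.79 and 10.87 in dermal and 5.20, 4.24 and 4.50 in node DC. Cxcl2 read 11.67, 11.59 and 11.44 and 6.23, 4.58 and 5.47, a fall of 6.14 (SE 0.36, limma adjusted p = 8.24e-14). Ccl3, Ccl4 and Ccl7 fell by 4.06, 4.11 and 5.05. Each of these chemokines was thus at least 4 log2 units lower in the node.

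Several inflammatory cytokines fell, and interleukin-15 and its receptor chain rose. Il1b read 11.24, 11.25 and 11.14 in dermal and 5.91, 5.67 and 6.88 in node DC. Il1a fell by 4.45, Il6 by 4.92, Il10 by 4.16 and Tnf by 1.74. Il15 rose by 3.27 and Il15ra, which presents it to T and NK cells, by 4.40, while the Il15 call was lost in the covariate fit (difference 2.33, adjusted p = 0.0621). Il12b averaged 5.85 and 4.87 and did not pass the test. Among growth factor and cytokine receptors Il2ra (CD25) rose from 3.61, 4.11 and 3.86 to 9.0, 9.21 and 9.76, with a dermal mean below the low-signal level. Il21r rose by 4.24. Csf1r, the receptor for M-CSF, fell from 10.15, 10.04 and 10.04 to 5.11, 4.95 and 5.31.

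NF-kB factors act through a canonical arm and a noncanonical one, in which the kinase NIK frees RelB and p52. Of 25 measured genes 11 rose and 5 fell, where 10.1% of all genes were called in each direction. Relb read 7.60, 7.63 and 7.22 in dermal and 9.94, 9.85 and 9.65 in node DC, a rise of 2.33 (limma adjusted p = 1.53e-07). Nfkb2, the gene of p52, read 8.45, 8.03 and 8.57 and 9.78, 10.01 and 9.72. Both were higher in every node array. Of 11 adaptors and kinases 8 rose and none fell. Birc2 (cIAP1) rose by 4.10, Traf1 by 1.50 and Map3k14 (NIK) by 0.87. Rel, a subunit of the canonical arm, fell by 0.69, and the inhibitors and feedback genes Tnip3, Nfkbid and Nfkbiz fell by 3.79, 2.07 and 1.25. In the covariate fit 6 genes of the list rose, and Rel, whose call was also lost after quantile normalization, did not pass (difference -0.58).

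Promoter sequence was searched for the NF-kB consensus and for the core of the interferon-stimulated response element (ISRE), which is TTTC, any 2 bases and TTTC, in the 250 bases before the start of each gene, on both strands. RefSeq's table for GRCm38.p6 held promoters for 15613 of the 19937 genes. The NF-kB consensus was present in 4.16% of all these promoters, in 5.15% of genes that rose and in 5.60% of genes that fell. For changes of at least 2 log2 units it was present in 6.4% of rises and 7.18% of falls. It was present in 9 of 22 promoters of the NF-kB list and in 5 of 15 of the chemokine list. The ISRE core was present in 2.93% of all, in 2.86% of genes that rose and in 2.98% of genes that fell. For changes of at least 2 log2 units it was present in 14 of 203 rises (6.9%) and 15 of 390 falls (3.85%). It was present in 12 of 19 promoters of the interferon list. Matches of both motifs overlapped in 2 promoters. The E-box CACGTG overlapped the NF-kB consensus in 1 promoter and the ISRE core in 0. It was present in 7.03% of all, in 6.39% of genes that rose and in 9.56% of genes that fell. For changes of at least 2 log2 units it was present in 5.42% of rises and 7.44% of falls. A match is a description of the letters, and no binding was measured.

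Promoters are shown for the largest rise, Apol7c, and for genes with NF-kB matches that moved in opposite directions, Nfkb2 and Il2ra up and Cxcl2 down. Capitals mark the ISRE core in Apol7c and the NF-kB consensus in the others, and overlapping matches run together. All run 5′ to 3′ on the gene's strand and end at the base before the start. The windows are chr15:77533316-77533565 on the minus strand, and chr19:46304487-46304736, chr2:11642542-11642791 and chr5:90903649-90903898 on the plus strand.
Apol7c: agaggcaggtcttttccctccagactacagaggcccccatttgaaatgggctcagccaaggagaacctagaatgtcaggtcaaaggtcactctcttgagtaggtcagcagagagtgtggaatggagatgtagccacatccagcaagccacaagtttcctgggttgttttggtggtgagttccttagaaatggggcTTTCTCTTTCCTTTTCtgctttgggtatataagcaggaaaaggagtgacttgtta
Nfkb2: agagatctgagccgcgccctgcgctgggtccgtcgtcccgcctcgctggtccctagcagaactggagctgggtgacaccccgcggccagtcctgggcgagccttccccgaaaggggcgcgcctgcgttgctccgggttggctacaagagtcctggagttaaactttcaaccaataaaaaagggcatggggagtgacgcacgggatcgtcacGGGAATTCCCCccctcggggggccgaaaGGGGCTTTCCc
Il2ra: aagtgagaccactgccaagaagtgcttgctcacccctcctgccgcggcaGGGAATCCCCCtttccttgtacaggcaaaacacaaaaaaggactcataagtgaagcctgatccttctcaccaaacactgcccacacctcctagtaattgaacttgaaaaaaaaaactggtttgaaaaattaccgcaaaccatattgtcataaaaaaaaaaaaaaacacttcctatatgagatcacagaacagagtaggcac
Cxcl2: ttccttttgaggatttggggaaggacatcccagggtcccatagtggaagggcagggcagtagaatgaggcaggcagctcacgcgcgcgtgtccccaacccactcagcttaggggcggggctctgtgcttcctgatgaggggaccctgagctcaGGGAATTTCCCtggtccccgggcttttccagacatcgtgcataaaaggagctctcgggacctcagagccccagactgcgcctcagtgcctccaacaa

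Of 49 transcription factors 21 fell, 9 rose and 19 did not pass, where 10.1% of all genes were called in each direction. Irf4, a factor of CD11b+ DC, read 8.70, 8.60 and 9.01 in dermal and 6.68, 7.61 and 7.54 in node DC, a fall of 1.50 (limma adjusted p = 0.000191). Irf8, a factor of the other conventional DC lineage, read 5.84, 6.44 and 5.99 and 8.44, 8.28 and 8.10, a rise of 2.18. The groups did not overlap for either gene, and the factors moved in opposite directions. Spib rose by 3.84, Stat4 by 4.19 and Batf3 by 1.23, the last call being lost in the covariate fit. Klf4 fell by 2.53, Cebpb by 2.57, Ahr by 2.48 and Myc by 3.62. Nr4a1, induced by many activating signals, fell by 5.56.

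Immediate early genes, which are also known to respond to tissue digestion, fell for 12 of 19 and rose for 1. The share of all genes called was 10.1% in each direction. Fosb read 11.47, 11.69 and 11.38 in dermal and 9.62, 9.54 and 8.43 in node DC, Ier3 fell by 3.93 and Egr2 by 3.42. Of 7 heat shock genes 3 rose and 1 fell, with Hspa8 up by 0.34, a call that was also lost with array medians centred and with only the compared groups fitted. In the covariate fit 9 of the 19 immediate early genes fell, and none of the 7 heat shock genes rose. Digestion differed between the tissues, and its part in these values cannot be told apart from that of the tissue. Nr4a1, Myc, Il1b, Cxcl2 and Ccl3 above are also rapidly induced genes.

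Among interferon-induced genes 11 of 27 rose and 3 fell, where 10.1% of all genes were called in each direction. Their median difference was 0.52. The GTPase gene Gbp5 read 5.09, 4.14 and 3.83 in dermal and 8.56, 8.76 and 8.64 in node DC, Gbp4 rose by 4.23, and Gbp9, outside the list, by 4.57. Mx1, an antiviral gene, rose by 2.69, Usp18 by 2.61 and Herc6 by 2.89. Oasl1 and Ifi205 fell by 2.01 and 2.30. In the covariate fit 7 genes of the list rose.

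Cholesterol synthesis and glycolysis moved in opposite directions. Of 18 cholesterol synthesis genes 11 rose and none fell, with a median of 1.15. The share of all genes called was 10.1% in each direction. Idi1, an isomerase of the isoprenoid steps, read 6.21, 6.57 and 7.17 in dermal and 9.96, 10.02 and 10.08 in node DC, and Hmgcs1, at the entry of the pathway, rose by 1.82. Among uptake and efflux genes Abcg1 and Nr1h3 (LXR-alpha) rose by 1.41 and 1.31, whereas Abca1 and Apoe fell by 2.96 and 2.13. In glycolysis 8 of 18 fell and 1 rose. Slc2a1, the glucose transporter GLUT1, fell by 2.66, Hk2 by 2.29 and Pfkp by 2.77. The single rise of the list was Pfkfb3, which makes an activator of phosphofructokinase. It read 8.31, 7.90 and 8.30 in dermal and 11.15, 11.52 and 11.33 in node DC. Eno3, an enolase gene that was not on the list, also rose, as given below.

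Of 20 mitosis genes 17 fell and none rose, and of 13 replication genes 4 fell and none rose, with medians of -1.98 and -0.46. In the covariate fit 13 mitosis genes and 2 replication genes fell. Mki67 read 8.28, 8.70 and 8.62 in dermal and 5.01, 5.57 and 4.92 in node DC, and Ccnb2, a mitotic cyclin, fell by 4.21. Cdkn2b, an inhibitor of cyclin-dependent kinases, rose by 3.34. Of 10 survival genes 6 rose and 1 fell, where 10.1% of all genes were called in each direction. Serpinb6b and Serpinb9, inhibitors of granule proteases, rose by 6.29 and 3.99, and Bcl2l1 (BCL-XL) by 1.42. Bcl2l11, the gene of the death protein BIM, fell by 2.33.

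**Figure D4:**
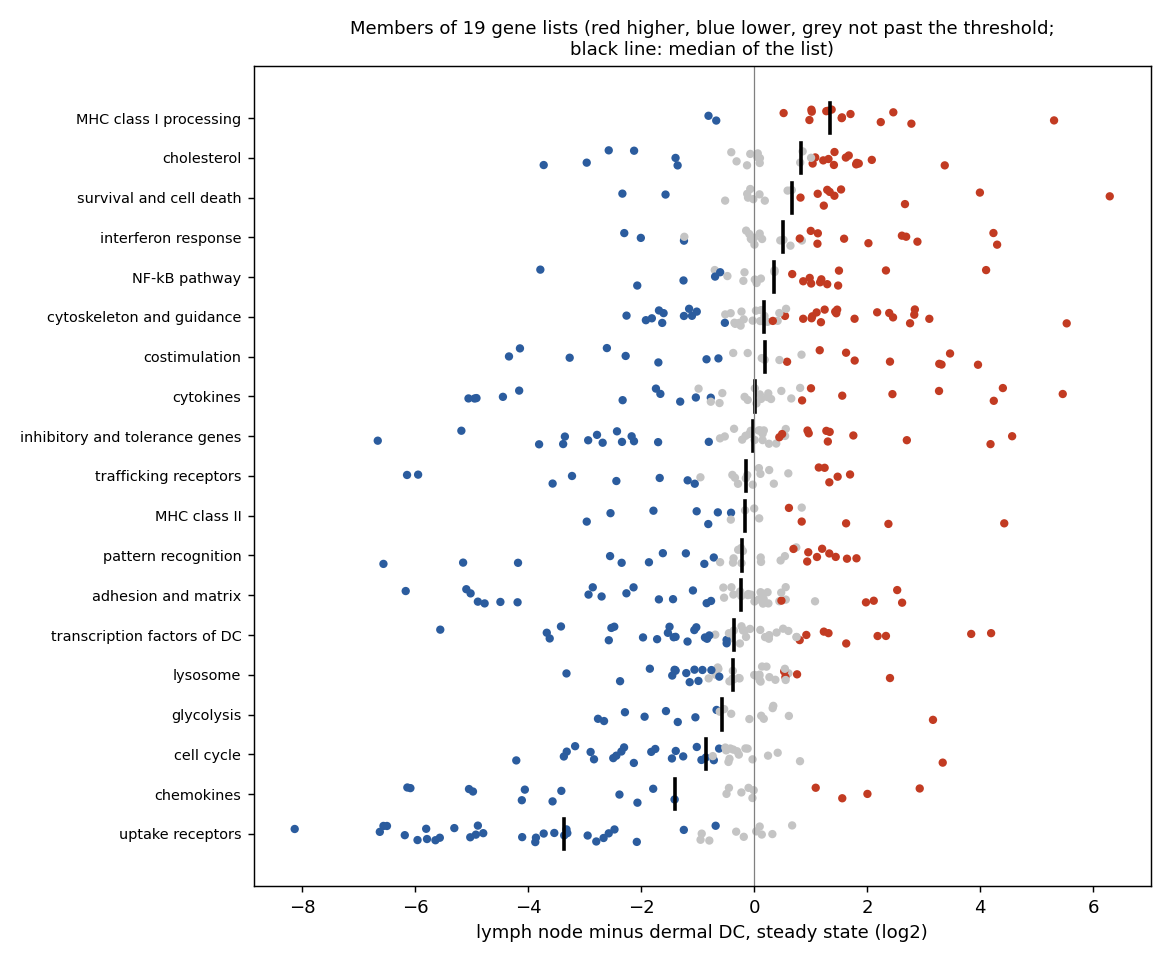
Node minus dermal DC difference (log2) of every measured member of 19 gene lists, coloured by the limma call, with the median of each list as a black line. The uptake receptors lie almost wholly on the negative side with a median of -3.36, the MHC class I processing genes lie mostly on the positive side with a median of 1.33, and most other lists straddle zero.

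The largest rises included genes with few ties to those lists. Apol7c, an apolipoprotein L gene, read 4.57, 5.54 and 4.25 in dermal and 11.74, 11.75 and 11.71 in node DC, a rise of 6.95 (SE 0.33, limma adjusted p = 6.33e-16). The dermal arrays lay near the low-signal level and the 3 node arrays within 0.1 of each other. Anxa3, an annexin gene, rose by 5.72, Clu (clusterin) by 5.22, the transporter gene Slco5a1 by 5.17 and Nudt17 by 5.01. AW112010 rose by 4.98 and Papss2, of the sulfate donor pathway, by 4.94. Eno3, an enolase gene of glycolysis left off the glycolysis list, rose by 4.43. Among the largest falls were Lyz1 (lysozyme, -6.19), Emp1 (-5.93) and Fcrls (-5.94). Of the genes that rose, 83.4% had a node mean above that of every one of the 10 blood and dermal groups, against 24.4% of all genes. The dermal DC themselves are one of those groups, so the call fixes part of this share. Of the genes that fell, 67.7% had a node mean below every one of those groups, against 13.2% of all genes.

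The same comparison after DNFB, on arrays that share none with the steady state, called 3486 genes (17.5%), 1683 up and 1803 down. Of the 2023 steady-state rises 1886 (93.2%) had the same sign there and 1089 (53.8%) the same call. Of the 2017 falls 1904 (94.4%) had the same sign and 1282 (63.6%) the same call. The median of these rises was 0.98 at steady state and 0.72 after DNFB, and that of the falls -1.30 and -0.99. The genes were chosen by their steady-state call, so the medians are not a like comparison of sizes. Opposite calls were made for 8 of the rises and 7 of the falls. The difference between both contrasts was tested directly and passed for 261 genes (1.31%). The steady-state difference lay above the DNFB difference for 99 and below it for 162, a split of 67 and 182 with array medians centred. The dermal DC groups themselves differed in other cells' genes. The summed keratinocyte signal of dermal DC was 748.4 to 1196 after DNFB against 1908 to 3093 at steady state, and the macrophage sum 7128 to 8884 against 13990 to 16180. The part of this in the differences below was not tested.

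The B7 genes and Irf4 are among those 261. After DNFB Cd86 read 10.58, 10.09 and 10.20 in dermal and 10.68, 10.49 and 10.69 in node DC, where the contrast was 0.33 and did not pass. The steady-state contrast lay below it by 2.03 (limma adjusted p = 0.00242). The Cd80 contrast was -2.28 at steady state and -0.62 after DNFB (adjusted p of the difference = 0.0244). For Irf4 the contrasts were -1.50 and 0.70 (adjusted p of the difference = 0.00252). The dermal mean of Irf4 was 8.77 at steady state and 7.71 after DNFB, and the node mean 7.27 and 8.41. For Ccr7 they were 1.48 and 0.27, a difference that did not pass (adjusted p = 0.14). Il21r (4.24 against 0.69) and Stat4 (4.19 against 1.35) had the higher contrast at steady state. Map3k14 rose at steady state by 0.87 and fell after DNFB, with a contrast of -0.99. In the interferon list 11 genes rose and 3 fell at steady state, and 5 rose and 11 fell after DNFB, where 8.44% of all genes rose and 9.04% fell. Of its members 8 had a difference between the contrasts, all with the steady-state difference above, where 0.497% of all genes passed in that direction.

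**Figure D5:**
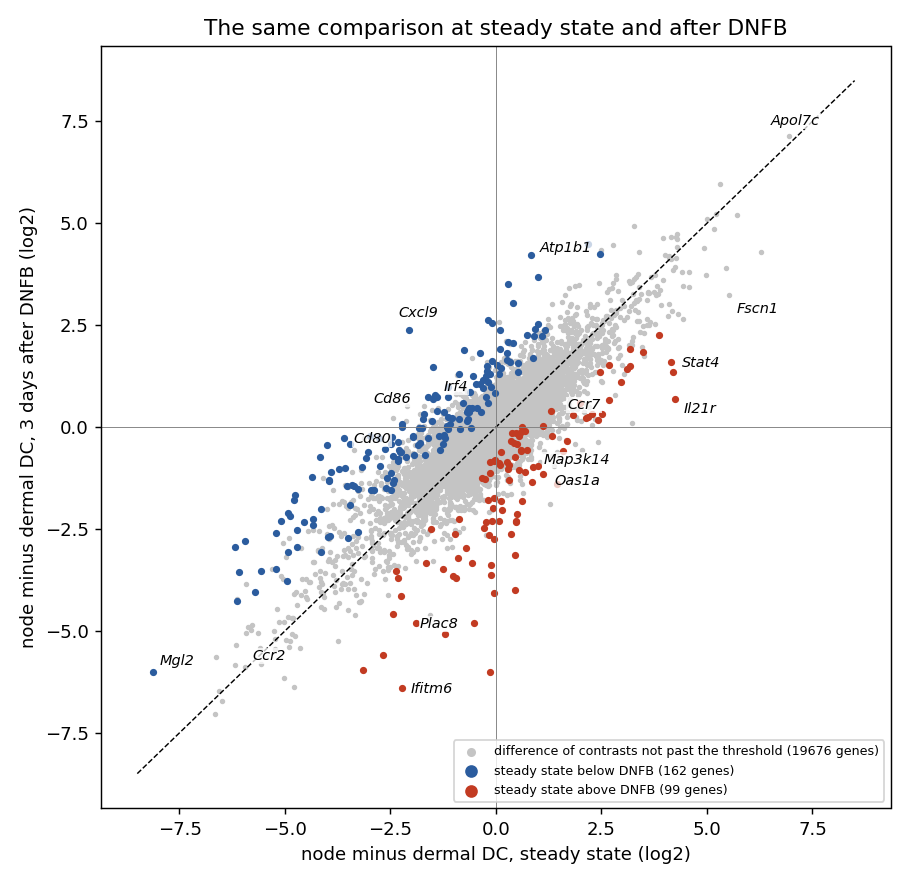
Node minus dermal DC difference of each gene at steady state (horizontal axis, log2) and 3 days after DNFB (vertical axis, log2), on arrays that share no sample, with genes whose contrasts differed in colour (99 red, 162 blue). For the genes in grey the difference of the contrasts did not pass the threshold. Cd86, Cd80, Irf4 and Cxcl9 lie above the dashed line of equality while Il21r, Stat4, Map3k14 and Oas1a lie below it.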

How the data were processed

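RNA of sorted cells was hybridised to 38 Affymetrix Mouse Gene 1.0 ST arrays in 13 groups. The values are log2 signals as the authors deposited them, and RMA and affy are named in the submitters' processing notes, with versions not given in the sources used here. Groups were read from the sample titles. Of 34760 probe sets, 21640 named 1 gene, 1321 several and 11799 none. For each of 19937 genes the probe set with the highest mean over all arrays was used. A model with a mean per group was fitted with limma 3.58.1 in R 4.3.3 on all 38 arrays, and p-values were adjusted over all genes (Benjamini-Hochberg, threshold 0.05). The fit was tested on simulated data. Each compared group has 3 arrays from independent pools of mice. The p-values rest on the spread between arrays within groups, pooled over all 13 groups (25 residual degrees of freedom). With only the compared groups fitted, 3593 genes were called at steady state, 3173 of them among the 4040.

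Named genes are the sorting markers, the 15 largest rises and falls without overlap, up to 10 members of each role list with the smallest adjusted p and every called member of lists of 30 or fewer. They also include the marker genes with the highest means and the genes outside the lists with the smallest p for the difference of contrasts. Irf4, Il15, Cd274, Cd200, Il12b, Tnf, Zbtb46, Ido1, Mertk, Folr2, Stab1 and C1qb fall outside this rule and were chosen after their values were seen. The comparison, its members and the gene lists were chosen with earlier results of these data known. Alternatives were blocks, array weights, variance trend, quantile normalization, median centring, a filter on low values, other uses of probe sets, covariates, treat and leaving out each array.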

Additional observations from a re-analysis of the deposited data

Results flagged for a closer look

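These results stand out because the node minus dermal DC difference itself differed between steady state and 3 days after DNFB, by limma's test of the difference over all genes with an adjusted p under 0.05 (n = 3 arrays in each of the 4 groups). The value given for each gene is the steady-state difference minus the DNFB difference, in log2 units. Leaving out each array in turn gave 170 to 249 genes for this test. Which of the genes listed here kept the call of the difference was not examined.

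Among chemokine, complement and uptake genes the values were -4.45 for Cxcl9, -2.55 for Cxcl10, -2.52 for Ccl2, -2.15 for Cxcl1, -2.81 for C1qc, -2.62 for C1qb and -1.87 for C3ar1. For Mgl2 the value was -2.13, for Cd163 -3.16, for Lyz1 -3.23, for Fcgr3 -2.04 and for Apoe -1.38, and for the receptor gene Csf1r -1.16. Fcgr1, also of the uptake list, went the other way with 2.23. Cxcl9 fell at steady state (-2.07) and had a contrast of 2.39 after DNFB.

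For costimulatory and other surface or presentation genes the values were -2.03 for Cd86, -1.66 for Cd80, -1.93 for Tnfsf9, -2.15 for Cd84, -2.64 for Cd2, -1.11 for Cd82 and -1.43 for H2-DMa. Among regulators the value was -2.20 for Irf4, -2.0 for Egr2, -0.93 for Ahr, -1.25 for Ier3 and -2.23 for Hr. Genes of dividing cells had -1.92 for Mki67, -1.74 for Cdk1, -2.07 for Aurkb and -1.36 for Top2a. Cytoskeletal and adhesion genes had -1.26 for Zyx, -1.0 for Cotl1, -1.79 for Cdc42ep3, -1.72 for Rapgef2 and -3.11 for Timp2. Atp1b1, a sodium pump subunit gene, had -3.40 and Hepacam2 had -3.15.

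For antiviral genes the values were 2.29 for Oas1a, 2.19 for Rsad2, 2.03 for Mx1 and 1.97 for Oasl2. Monocyte list genes had 4.28 for Plac8, 4.16 for Ifitm6 and 2.78 for Vcan, and their summed signal in dermal DC was 3608 to 4096 at steady state and 4186 to 4854 after DNFB. Signalling genes had 3.55 for Il21r, 2.85 for Stat4 and 1.86 for Map3k14. Kit, also a mast cell marker, had 2.82, and the summed mast cell signal of dermal DC was 157.5 to 249.9 at steady state and 325.5, 254 and 814.9 in the arrays after DNFB. The part of mast cell RNA in this was not tested. The value was 1.11 for Psmb9, 1.14 for Bcl2l14, 1.17 for Gla, 1.68 for Mmp7, 1.68 for Vegfa and 1.87 for Cdh1. Klrd1, an NK cell gene, had 2.64, and the summed NK cell signal of dermal DC was 888.8 to 1314 at steady state and 2434 to 3823 after DNFB. The part of NK cell RNA in this was not tested. Outside the lists it was 5.85 for I730030J21Rik, 3.52 for Cyp7b1, 3.26 for Ffar2 and 2.71 for Wfikkn2. All of these outside the lists had a steady-state contrast near 0, for example -0.12 for Ffar2, and a DNFB contrast of -3.38 in that gene. Calls of Atp1b1, Cd82, Oasl2 and Cxcl9 at steady state were lost when 1 array was left out, Atp1b1 without dermal DC replicate 2 or 3 or node DC replicate 1 or 2 (adjusted p 0.122 to 0.16), Cd82 without dermal DC replicate 2 or node DC replicate 3 (adjusted p 0.0582 to 0.128), Oasl2 without dermal DC replicate 2 or node DC replicate 3 (adjusted p 0.132 to 0.153) and Cxcl9 without node DC replicate 2 (adjusted p 0.0542).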

How the results depend on the processing

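The steady-state count of 4040 genes stayed within 1.5 times of that under 11 alternatives, from 2927 with the mean keratinocyte and fibroblast signals as covariates to 4615 with array weights. A similar count can hold other genes. Of the 2927 called with the covariates 2354 were among the 4040, and 49 named genes lost their call there while 4 gained one. The steady-state count was 839 (296 up, 543 down) when a change of at least 2-fold was tested with treat, a stricter question, and 3400 to 3620 without each array in turn. The count for DNFB was 5705 with array weights and 723 with treat, and 2824 to 3247 without each array. The count for the difference of the contrasts, 261, was 419 with only the compared groups fitted, 771 with array weights and 14 with treat, and it was 170 to 249 without each array, lowest without replicate 1 of the dermal DC after DNFB. The cause of these shifts was not tested, other than treat's own stricter question. The labels do not say whether same-numbered arrays were prepared together. Source names number the dermal arrays 1, 2 and 4 and the node arrays 1, 2 and 3. Deviations of same-numbered replicates from their group means correlated at -0.0132, -0.0171 and 0.0254, which cannot decide whether they are paired. With the replicate block the counts were 4027 (3958 of them among the 4040), 3474 and 253, and the block ended the call of Slamf7 alone among named genes (difference 0.58). Of 375 named genes 300 were called, 271 of which kept the call without each array and 175 under all 17 alternatives run, treat included. With the covariates the sign turned for Col1a2 (1.19), Krt10 (0.53), Lgals7 (0.63) and Sfn (0.031), which are members of the lists used as covariates. Group means of 3 arrays limit small changes. On simulated data the test found 81 of 100 genes changed 2-fold and 94 of 100 changed 4-fold, and it called 13 unchanged genes. The simulated noise was independent between genes and arrays, so it does not bear on effects that arrays share.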
